A study of Schmidtea mediterranea with 24 samples.

Results

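The transcripts described here are the 122 genes, of 22197 in the table, whose level was lower than in control animals after RNAi of each of 5 planarian Hox genes. The silenced genes were *hox1*, *lox5b* and *post2b* and the pair *hox3a* and *hox3b*. A gene was a member if its mean level over 24 libraries was at least 1 TPM (transcripts per 1000000 transcripts), if its mean log2(TPM + 0.5) was at least 0.5 below the control mean in every one of the 5 RNAi groups, and if it was not among 28 genes left out beforehand, of which 24 were the study's Hox effectors of fission. Of 14306 genes with a mean of at least 1 TPM, 124 met the rule on the falls and 2 of these were on the list left out. The differences from control therefore chose the members, and they are given here as a description without a test. All 5 differences also share the same 4 control libraries.

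The study asked which genes act downstream of Hox genes in the asexual reproduction of *Schmidtea mediterranea*, a flatworm that reproduces by fission, tearing off a piece of its posterior that then regenerates into a new animal. All animals came from the clonal asexual strain CIW4. They were fed purified double-stranded RNA (dsRNA) 7 times and starved for 5 days before RNA was taken from whole animals. Control animals were treated alike with dsRNA of *unc-22*, a nematode muscle gene, so every group carries an RNAi treatment. There were 4 libraries per group, each from a pool of 3 animals, and tests measure the spread between such pools.

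Hox genes encode homeodomain transcription factors that give cells along the head-to-tail axis of animals their regional identity. In most animals they sit in clusters on the chromosome, whereas in this planarian they are dispersed in the genome. RNAi by feeding spreads through the whole planarian body and degrades the transcript that matches the dsRNA. Adult planarian tissue is renewed from dividing stem cells called neoblasts.

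The primers that bounded the template of each dsRNA are the sequences that set the 5 Hox RNAi groups apart. They are printed 5′ to 3′ without the vector tails, of which the 5 forward primers share one and the 5 reverse primers share another, and each gene-specific part is 23 bases long.
hox1 forward: atttcaacaaacaagcattggtc
hox1 reverse: acaataaatgtttcgaccttggt
hox3a forward: ttacaggtggatgatagacacaa
hox3a reverse: tgacaccagaaaattgatagcag
hox3b forward: tagtccacacatcatgagaaaga
hox3b reverse: taggaaataaatgccggattgtc
lox5b forward: actcaaaatctgaatttgccgta
lox5b reverse: tgatttgcctttccgttaaagat
post2b forward: gtcaattaacgaattctccggat
post2b reverse: gatataactgaatcgctctgtcg
No 2 of these 10 primers are the same, so each group was made with its own template. The chromosomal positions of the primers and of the members, and the sequences of the members, were not analysed here.

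Values were deposited as TPM, in which reads are corrected for transcript length and each library is brought to a sum of 1000000. A TPM table keeps no read depth, so the depth is unknown and precision rests on the 4 libraries of a group. Between 16685 and 17843 genes had a TPM above 0 in a library, and the *lox5b* RNAi libraries, at 16685 to 17109, included the lowest counts. Factors that bring the libraries to the same median ratio ranged from 0.925 to 1.103, with the control libraries at 1.054 to 1.103. The control libraries lay toward the top of this range, and the median gene of a Hox RNAi group lay slightly below control. No source used here links the 5 silenced Hox genes to gene IDs of the table, so the depth of each knockdown was not analysed here. Fewer cells that carry a transcript and less of the transcript in each cell cannot be told apart in RNA of whole animals.

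The members were mostly scarce transcripts. Their mean level ran from 1.02 to 242 TPM, with a median of 4.10 TPM against 17.6 TPM for all genes that reached a mean of 1 TPM. Of the 122 members, 30 lay under 2 TPM, 59 from 2 to 10 TPM, 23 from 10 to 50 TPM and 10 over 50 TPM. No member was at 0 TPM in a control library, while 11 were at 0 TPM in at least 1 library after Hox RNAi. The members summed to 3213 to 3734 TPM in the control libraries, 0.336% of all TPM on average. This sum was 1457 to 2563 TPM in *hox1* RNAi, 1407 to 2579.9 TPM in *hox3a* RNAi, 1464 to 2616 TPM in *hox3b* RNAi and 1685 to 2409 TPM in *post2b* RNAi. In *lox5b* RNAi it was 810.5 to 1215 TPM, below every library of any other group.

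**Figure D1:**
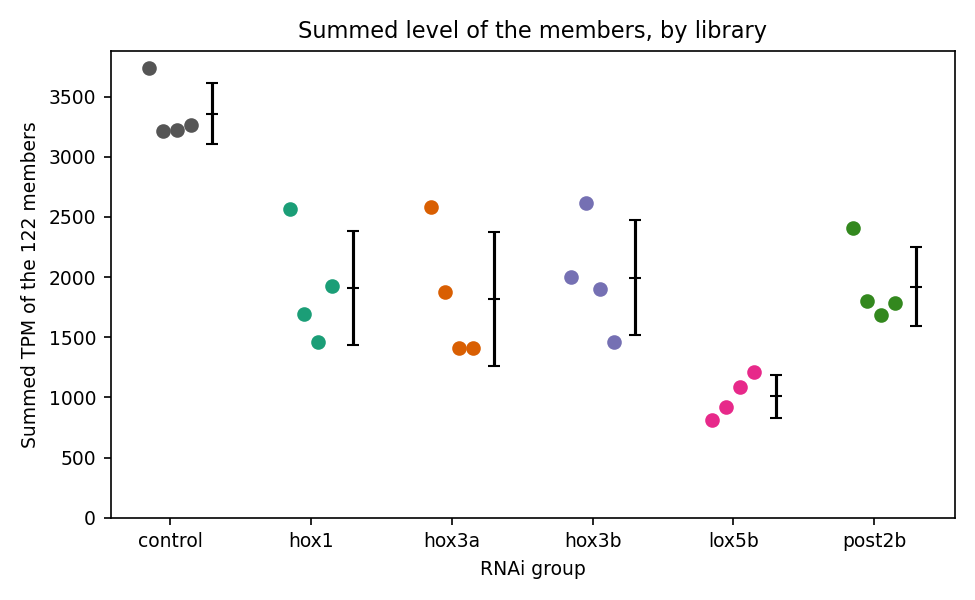
Summed TPM of the 122 members in each library, by RNAi group, with 4 points per group and the mean ± SD beside them. The *lox5b* RNAi libraries, at 810.5 to 1215 TPM, lie below all others, and the control libraries, at 3213 to 3734 TPM, lie above all others, as the rule for choosing members requires of the group means.

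SMESG000015174.1 was the most abundant member, with 454, 370.4, 392 and 369.5 TPM in the control libraries. It had 228, 175, 138 and 193 TPM in *hox1* RNAi, 361, 266, 187 and 180.5 TPM in *hox3a* RNAi and 236, 352, 224 and 196 TPM in *hox3b* RNAi. The values were 111, 111, 146 and 123 TPM in *lox5b* RNAi and 271, 256, 224 and 249 TPM in *post2b* RNAi. All 20 Hox RNAi libraries lay below all 4 control libraries, although *hox3a* replicate 1 and *hox3b* replicate 2 came close to the lowest control. The *hox1* and *lox5b* groups were the lowest, and only 1 *lox5b* library reached the range of *hox1* RNAi. The differences from control were -1.13 (*hox1*), -0.73 (*hox3a*), -0.68 (*hox3b*), -1.69 (*lox5b*) and -0.66 (*post2b*).

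SMESG000056364.1 showed the largest *lox5b* fall of all members. It had 279, 249, 228 and 206 TPM in control and 28.1, 20.1, 49.0 and 87.0 TPM in *lox5b* RNAi, a difference of -2.58 on the log2(TPM + 0.5) scale. The 4 *lox5b* libraries spread over more than 4-fold among themselves and stayed below control. In *hox1* RNAi the values were 195, 125, 69.2 and 148 TPM, in *hox3a* RNAi 143, 99.7, 78.4 and 82.2 TPM, in *hox3b* RNAi 111, 171, 116 and 71.0 TPM and in *post2b* RNAi 174, 97.4, 90.2 and 94.3 TPM. These groups overlapped one another.

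SMESG000072804.1 and SMESG000072807.1 carry gene IDs only 3 numbers apart and had closely similar levels. The former had 259, 187, 235 and 195 TPM in control, 105, 82.1, 66.0 and 129 TPM in *hox1* RNAi and 202, 144, 77.6 and 96.4 TPM in *hox3a* RNAi. It had 162, 178, 132 and 117 TPM in *hox3b* RNAi, 47.4, 54.7, 69.4 and 65.9 TPM in *lox5b* RNAi and 169, 128, 117 and 139 TPM in *post2b* RNAi. For SMESG000072807.1, group means were 197 ± 39.7 TPM in control, 53.4 ± 11.7 in *lox5b*, 70.2 ± 25.5 in *hox1*, 109 ± 46.8 in *hox3a*, 118 ± 25.9 in *post2b* and 120.2 ± 18.4 in *hox3b* RNAi (SD, n = 4). In both genes *lox5b* and *hox1* RNAi gave the lowest means, and 1 library of *hox3a* RNAi overlapped the control range. Whether reads of the pair can be told apart was not analysed here.

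Among the other abundant members, SMESG000069984.1 had 203 ± 27.1 TPM in control and 65.4 ± 13.3 TPM in *lox5b* RNAi, and its means in the other 4 groups ran from 103 to 126 TPM (SD, n = 4). SMESG000017801.1 had 213, 205, 173 and 199 TPM in control and 206, 99.3, 83.2 and 123 TPM in *hox1* RNAi. The first of these *hox1* libraries lay inside the control range and the other 3 below it. The same gene had 129.5, 68.8, 60.4 and 61.4 TPM in *hox3a* RNAi and 72.5, 131, 73.7 and 50.8 TPM in *hox3b* RNAi. In *lox5b* RNAi it had 34.5, 63.8, 42.2 and 64.8 TPM and in *post2b* RNAi 113, 98.2, 79.5 and 78.9 TPM, all below control.

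**Figure D2:**
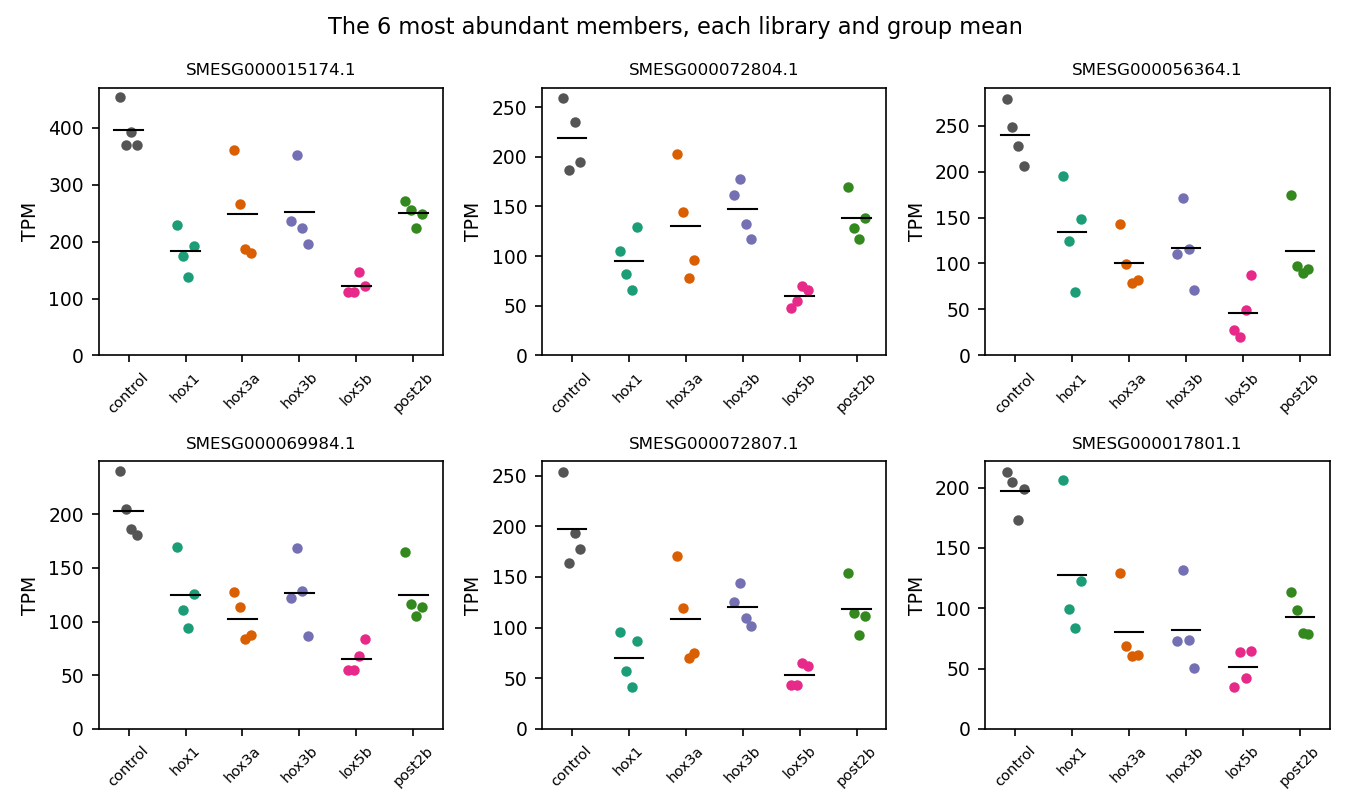
TPM of the 6 members with the highest mean level, in each library (points) with the group mean (line), by RNAi group, n = 4 libraries each. In all 6 genes the *lox5b* RNAi group has the lowest mean, as in SMESG000015174.1 with 111 to 146 TPM against 369.5 to 454 TPM in control.

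Over all 122 members the fall was deepest in *lox5b* RNAi. The median difference from control on the log2(TPM + 0.5) scale was -1.51 in *lox5b*, -0.86 in *hox3a*, -0.79 in *post2b*, -0.69 in *hox3b* and -0.65 in *hox1* RNAi. In linear terms the median member was 1.57-fold lower in *hox1* and 2.85-fold lower in *lox5b* RNAi. The median over all 15829 genes tested was -0.15, -0.14, -0.15, -0.05 and -0.06 in the same order. Bringing all libraries to the same median ratio raised the all-gene median by 0.141 in *hox3a*, 0.141 in *lox5b* and 0.146 in *post2b* RNAi. It left the median of the members at -1.38 in *lox5b*, -0.74 in *hox3a*, -0.65 in *post2b*, -0.63 in *hox3b* and -0.60 in *hox1* RNAi. On that scale only 60 genes met the rule, all of them among the 122.

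**Figure D3:**
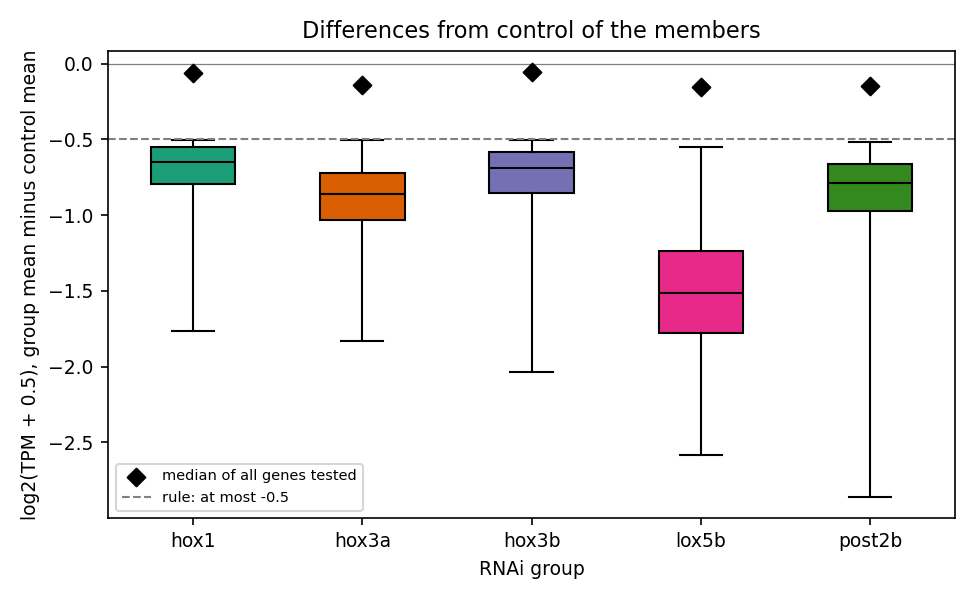
Difference of each RNAi group mean from the control mean on the log2(TPM + 0.5) scale for the 122 members: boxes span the quartiles, the line is the median, whiskers reach the lowest and highest member, and the dashed line is the limit of the rule. The box of *lox5b* RNAi, with a median of -1.51, lies lowest, and the medians of all genes tested (diamonds) lie between -0.15 and -0.05.

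Library by library, 70 members had all 4 *hox1* RNAi libraries below all 4 control libraries, against 9.34% of all genes tested. The counts were 100 members in *hox3a* RNAi against 24.7% of all genes, 88 in *hox3b* RNAi against 11.6%, 117 in *lox5b* RNAi against 32.6% and 100 in *post2b* RNAi against 26.9%. In 44 members all 20 Hox RNAi libraries lay below every control library, against 1.82% of all genes tested. The rule used these same values, so nothing is read from the shares.

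How many genes meet the rule depended on single libraries. Without *hox3b* replicate 4, the lowest of its group, 78 genes met it, and without *hox1* replicate 1, the highest of its group, 167 did. Only 37 of the 122 members met the rule whichever of the 24 libraries was left out. A fall of at least 1.5-fold in every group was met by 57 members, a fall of 0.75 by 18 and a fall of 1 by 2.

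The 2 members that fell by at least 1 in every group were SMESG000057502.1 and SMESG000031950.1. SMESG000057502.1 had 9.56, 5.81, 8.77 and 9.73 TPM in control and 2.06, 3.41, 1.65 and 0.492 TPM in *hox3b* RNAi, where its difference of -2.04 was the largest *hox3b* fall among the members. It had 4.02, 3.32, 2.40 and 5.67 TPM in *hox1*, 3.69, 1.81, 2.77 and 1.52 TPM in *hox3a*, 0.957, 1.33, 1.68 and 1.90 TPM in *lox5b* and 4.13, 4.55, 3.07 and 2.16 TPM in *post2b* RNAi. No Hox RNAi library reached the lowest control value. SMESG000031950.1, named here after its values were seen, fell more evenly, with differences of -1.05 (*hox1*), -1.14 (*hox3a*), -1.12 (*hox3b*), -1.55 (*lox5b*) and -1.26 (*post2b*).

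The mean of the 5 falls was largest in SMESG000042720.1, a scarce transcript. It had 6.42, 6.19, 3.52 and 5.25 TPM in control, 0.246, 0, 1.61 and 1.30 TPM in *lox5b* RNAi and 1.10, 0.487, 0.148 and 0.416 TPM in *post2b* RNAi. These 2 groups lay below all control libraries. In *hox1* RNAi it had 4.13, 1.37, 1.94 and 1.61 TPM, in *hox3a* RNAi 3.60, 1.80, 1.21 and 0.794 TPM and in *hox3b* RNAi 2.11, 4.91, 2.54 and 1.71 TPM, and 1 library of each of these groups lay inside the control range.

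SMESG000036037.1 had the deepest *hox3a* fall of the members. Its levels were 4.26, 4.82, 3.40 and 2.94 TPM in control and 2.03, 0.621, 1.00 and 0 TPM in *hox3a* RNAi, where 1 library was at 0 TPM. The differences from control were -0.80 (*hox1*), -1.83 (*hox3a*), -1.34 (*hox3b*), -2.27 (*lox5b*) and -1.21 (*post2b*). In SMESG000040959.1 they were -0.80 (*hox1*), -1.36 (*hox3a*), -1.35 (*hox3b*), -2.26 (*lox5b*) and -1.25 (*post2b*), from a control level of 7.65 ± 1.18 TPM (SD, n = 4). SMESG000018514.1, at 4.82 ± 0.695 TPM in control (SD, n = 4), had differences of -0.95 (*hox1*), -1.10 (*hox3a*), -0.96 (*hox3b*), -2.26 (*lox5b*) and -1.41 (*post2b*). Its *hox1* RNAi libraries held 4.81, 2.02, 1.23 and 1.94 TPM, so that 1 of them overlapped control.

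At the other end, SMESG000064359.1 fell by nearly the same amount in every group, with differences from -0.68 in *lox5b* to -0.54 in *hox3b* RNAi. It had 7.62, 8.23, 8.85 and 8.52 TPM in control, 6.86, 4.49, 4.91 and 5.43 TPM in *hox1* RNAi and 6.02, 5.30, 5.92 and 4.33 TPM in *hox3a* RNAi. The values were 6.08, 6.67, 5.78 and 4.03 TPM in *hox3b*, 4.57, 5.97, 4.41 and 5.13 TPM in *lox5b* and 7.94, 3.49, 5.11 and 5.53 TPM in *post2b* RNAi. Except for *post2b* replicate 1, every Hox RNAi library lay below control.

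SMESG000002889.1 had the next most even fall and is 1 of only 2 members that the annotation used here lists. It has no product name there, and its best protein match is synaptotagmin-1, which in vertebrates and insects senses calcium at synaptic vesicles and triggers transmitter release. It had 3.71, 3.55, 2.99 and 2.92 TPM in control, 2.13, 2.07, 1.33 and 1.76 TPM in *hox1*, 1.93, 2.06, 1.90 and 1.55 TPM in *hox3a* and 2.09, 2.23, 2.15 and 1.27 TPM in *hox3b* RNAi. In *lox5b* RNAi it had 1.52, 2.12, 2.19 and 2.58 TPM and in *post2b* RNAi 2.03, 1.41, 1.32 and 2.58 TPM. All 20 Hox RNAi libraries lay below control, and this was the 1 member in which *lox5b* RNAi had the highest mean of the 5 groups, as it did in 24.1% of all genes tested.

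Members just inside the rule were SMESG000077104.1, whose smallest fall was -0.501 in *hox1* RNAi, and SMESG000064113.1, with -0.502 in *hox3b* RNAi. The genes that missed it by least were SMESG000016089.1 and SMESG000014795.1, with -0.499 and -0.498 in *hox1* RNAi. SMESG000016089.1 fell by 2.04 in *lox5b* RNAi, more than most members, so the border of the set is not a gap in the data. In 70 of the 122 members the smallest of the 5 falls was under 0.6.

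The rule compared each group with control and did not compare the Hox RNAi groups with one another. The same 20 libraries enter both, however, and a gene with a large change in 1 group alone could not become a member. The choice of members therefore shapes the shares of members called below, which stand beside those of all genes as a description only. A moderated F test over the 5 Hox RNAi group means (limma, adjusted p under 0.05 over all genes tested) was passed by 80 of 122 members, 65.6%, against 44.8% of all genes tested. Each group was then set against the mean of the other 4, with a call at 1.5-fold and an adjusted p under 0.05. At least 1 of the 5 contrasts was called in 77 members, 63.1%, against 7.73% of all genes tested.

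In *lox5b* RNAi 74 members, 60.7%, were lower than in the other 4 Hox RNAi groups, against 4.19% of all genes tested. None was called higher by limma, against 0.891% of all genes. At an unadjusted p under 0.05 none was higher (share of all genes not counted). The median log2 difference was -0.69 over the members and -0.0471 over all genes tested. It was below 0 in 118 of 122 members, and the share of all genes below 0 was not counted. Every member had to fall by at least 0.5 in *lox5b* RNAi and in the other 4 groups alike, so a member could be higher in *lox5b* RNAi only by falling further in the others. The count was 61 without *lox5b* replicate 1, the lowest library of that group, and 80 without *lox5b* replicate 4, the highest. At 2-fold or more, 26 members were lower, against 0.910% of all genes tested. By order of means alone, *lox5b* RNAi was the lowest of the 5 groups in 105 members, against 36% of all genes tested.

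SMESG000016700.1 had the largest such difference. Its values were 0, 0.291, 1.26 and 1.42 TPM in *lox5b* RNAi against 5.08, 2.28, 1.88 and 3.23 TPM in *hox1*, 4.44, 3.62, 1.10 and 2.08 TPM in *hox3a*, 3.20, 3.16, 2.47 and 1.29 TPM in *hox3b* and 4.29, 3.31, 2.01 and 2.94 TPM in *post2b* RNAi. The control libraries held 4.47, 5.86, 4.16 and 6.42 TPM. The *lox5b* libraries overlapped the lowest *hox3a* and *hox3b* libraries only, and the difference from the other 4 groups was -1.58 ± 0.30 (SE, adjusted p = 0.000336), by limma.

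Of the abundant members, SMESG000015174.1 was lower in *lox5b* RNAi than in the other 4 groups by a log2 difference of -0.89 ± 0.14 (SE, adjusted p = 6.82e-05). The same difference was -1.48 ± 0.27 (SE, adjusted p = 0.000275) in SMESG000056364.1 and -1.05 ± 0.18 (SE, adjusted p = 0.000112) in SMESG000072804.1. These 3 calls by limma held whichever library was left out. In SMESG000057502.1 the difference of -0.70 ± 0.25 (SE, adjusted p = 0.0309) lost its call without *lox5b* replicate 1 or 2. SMESG000064113.1, just inside the rule, had a difference of -0.69 ± 0.18 (SE, adjusted p = 0.00532), held under every left-out library.

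Fewer members stood apart in the other groups. In *post2b* RNAi 3 members were lower than in the other 4 groups (1.02% of all genes tested). By limma none was higher (0.512% of all genes). At an unadjusted p under 0.05, 4 were lower and 14 higher (share of all genes not counted). The 3 called lower were SMESG000081459.1, SMESG000042720.1 and SMESG000064045.1, the last chosen for mention after its values were seen. SMESG000081459.1 had 8.56, 8.90, 7.67 and 8.45 TPM in control and 1.14, 0.701, 0.581 and 0.562 TPM in *post2b* RNAi. It had 1.39, 2.62, 2.56 and 2.51 TPM in *lox5b* RNAi, the next lowest group, without overlap with *post2b*. In *hox1* RNAi the values were 7.01, 5.42, 3.90 and 6.65 TPM, in *hox3a* RNAi 4.26, 5.70, 3.15 and 4.72 TPM and in *hox3b* RNAi 5.34, 6.41, 5.85 and 3.36 TPM. Its *post2b* level differed from the other 4 groups by -1.91 ± 0.16 (SE, adjusted p = 7.73e-09), the largest difference among Hox RNAi groups of any member, by limma. Its *hox1* level was higher than in the other 4 groups by 0.99 ± 0.16 (SE, adjusted p = 0.000433) and its *hox3b* level by 0.83 ± 0.16 (SE, adjusted p = 0.00493), and only the last of these 3 calls was lost in any leave-one-out fit, without *hox3b* replicate 2. SMESG000042720.1 differed in *post2b* RNAi by -1.08 ± 0.33 (SE, adjusted p = 0.0356), a call lost without *post2b* replicate 2, 3 or 4.

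In *hox1* RNAi 1 member was lower (0.973% of all genes tested) and 7 were higher (0.866% of all genes) than in the other 4 groups. The lower one, SMESG000037569.1, had 18.2, 13.9, 10.3 and 16.3 TPM in *hox1* RNAi and 14.4, 10.9, 11.9 and 14.3 TPM in *lox5b* RNAi. It had 57.0, 47.1, 35.6 and 35.2 TPM in control, 40.9, 35.8, 21.6 and 21.9 TPM in *hox3a*, 30.3, 38.5, 28.4 and 24.2 TPM in *hox3b* and 35.3, 26.5, 25.6 and 27.9 TPM in *post2b* RNAi. The *hox1* and *lox5b* libraries thus lay together below all libraries of the other 3 Hox RNAi groups, which reached into the control range. By limma the *hox1* difference from the other 4 groups was -0.71 ± 0.16 (SE, adjusted p = 0.00693), lost without *hox1* replicate 3, and the *hox3b* difference was 0.59 ± 0.16 (SE, adjusted p = 0.0301), lost when any 1 of 12 libraries was left out. Of the 7 higher members, SMESG000017801.1 differed by 0.74 ± 0.22 (SE, adjusted p = 0.0346), lost without *hox1* replicate 1, 2 or 4. SMESG000036037.1 differed by 0.87 ± 0.27 (SE, adjusted p = 0.046), lost when any 1 of 17 libraries was left out. The count of 8 members called in *hox1* RNAi became 2 without *hox1* replicate 1, 5 without *hox1* replicate 4 and 15 without *hox1* replicate 3.

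In *hox3b* RNAi 5 members were higher than in the other 4 groups (1.02% of all genes tested). By limma none was lower (0.120% of all genes), also at an unadjusted p under 0.05, where 30 were higher (share of all genes not counted). In *hox3a* RNAi by limma none was lower (0.354% of all genes). At an unadjusted p under 0.05, 3 were lower and 10 higher (share of all genes not counted). At the adjusted limit 2 members were called higher in *hox3a* RNAi (1.20% of all genes tested). SMESG000068215.1, the larger of these *hox3a* differences, had 2.05, 0.882, 4.28 and 1.31 TPM in *hox3a* RNAi, 0.760, 0.310, 0.878 and 0.775 TPM in *hox1* RNAi and 0.251, 0.524, 0.626 and 0.851 TPM in *lox5b* RNAi. Its *hox3a* libraries spread almost 5-fold and overlapped the control values of 4.01, 2.81, 2.49 and 2.32 TPM, and its call by limma, 0.76 ± 0.23 (SE, adjusted p = 0.0386), was lost when any 1 of 7 libraries was left out. The *hox3b* count of 5 became 0 without *hox3b* replicate 2, 1 without *hox3b* replicate 1 or 3, and 16 without *hox3b* replicate 4. It became 2 without *hox1* replicate 2, *hox3a* replicate 3 or 4 or *post2b* replicate 2 or 3, and 3 without *hox1* replicate 3, *lox5b* replicate 1 or 2 or *post2b* replicate 4. It became 8 without *hox1* replicate 1 or *post2b* replicate 1, and 10 without *hox3a* replicate 1. The *hox3a* count of 2 became 0 without *hox3a* replicate 1, 1 without *hox1* replicate 2, *hox3a* replicate 2, *hox3b* replicate 1 or 4 or *post2b* replicate 2 or 4, and 4 without *hox3b* replicate 2 or *post2b* replicate 1.

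**Figure D4:**
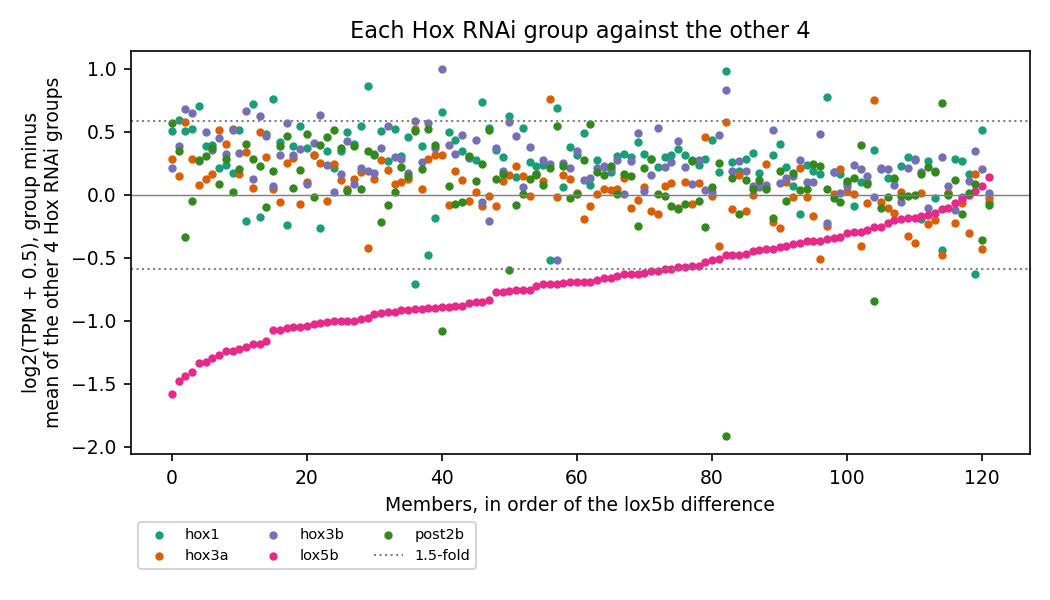
Difference of each Hox RNAi group from the mean of the other 4 on the log2(TPM + 0.5) scale (y axis) for each of the 122 members, in order of the *lox5b* difference (x axis). The *lox5b* points fall to -1.58 and are below 0 in 118 members, where the median of all genes tested was -0.0471. The single *post2b* point at -1.91 is SMESG000081459.1.

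The members were also high or low together in libraries of the same group, read as deviations from the group mean, which the rule did not use. In *hox1* replicate 1, 119 of 122 members lay above their *hox1* mean, against 67.7% of all genes tested, and their median was 0.42 above it on the log2 scale. In *hox3a* replicate 1, 116 members lay above the group mean, against 51.4% of all genes, by a median of 0.42. The counts were 112 in *hox3b* replicate 2 against 60.3% and 114 in *post2b* replicate 1 against 64.1%. In *hox3b* replicate 4 only 3 members lay above the mean, against 35.1% of all genes tested, and the median was 0.40 below it.

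The *lox5b* libraries ranged from a median of -0.22 in replicate 1 to 0.25 in replicate 4, and the control libraries only from -0.07 in replicate 3 to 0.11 in replicate 1. Across the 4 libraries of a group, the median of the members thus spanned 0.18 in control and 0.48 to 0.73 in the Hox RNAi groups, while that of all genes tested spanned 0.05 in control and 0.07 to 0.13 in the Hox RNAi groups. The median member had an SD of 0.19 between control libraries and of 0.31 to 0.37 between libraries of a Hox RNAi group. For the median gene tested these SDs were 0.13 and 0.14 to 0.17. Members were also scarcer, at a median of 4.10 TPM against 17.6 TPM for all genes that reached a mean of 1 TPM. The part of the level in these SDs was not tested. Over the 24 libraries with group means removed, Pearson's r between members averaged 0.491 over all pairs, against 0.0525 over all pairs of genes tested, given as a description since the values of a library share its RNA and its scaling to 1000000.

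In the 5 libraries named for their shared deviation, other measures were read as well. Genes detected numbered 17314 in *hox1* replicate 1 against 17087 to 17132 in the other *hox1* libraries, and 17713 in *post2b* replicate 1 against 17189 to 17379. In *hox3b* RNAi they numbered 17683 in replicate 2 and 17225 in replicate 4, the highest and lowest of the group. The 17380 of *hox3a* replicate 1 lay within the 17322 to 17505 of the other *hox3a* libraries. Genes with cilium product names moved the other way in all 5, with a median deviation of -0.07 in *hox1* replicate 1, -0.11 in *hox3a* replicate 1, -0.08 in *hox3b* replicate 2, -0.04 in *post2b* replicate 1 and 0.05 in *hox3b* replicate 4. Genes with proliferation product names moved with the members, at 0.15, 0.13, 0.13, 0.08 and -0.20 in the same order. All genes tested had a median deviation of 0.07, 0.01, 0.04, 0.05 and -0.06 in that order. In other libraries neither pattern always held. In *lox5b* replicate 1 cilium genes (-0.10) and members (-0.22) were both low, and in *hox1* replicate 2 proliferation genes (0.05) were high and members (-0.17) low. Other lists were not read library by library. Over the 24 libraries, the mean within-group r of a list's genes with the members' mean was -0.371 for cilium and 0.561 for proliferation. For the other lists it ran from 0.0494 (marginal adhesive gland) to 0.344 (stress). Of all genes tested, 28.6% had such an r over 0.5 and 9.7% under -0.5. The part of these measures in the members' levels was not tested.

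**Figure D5:**
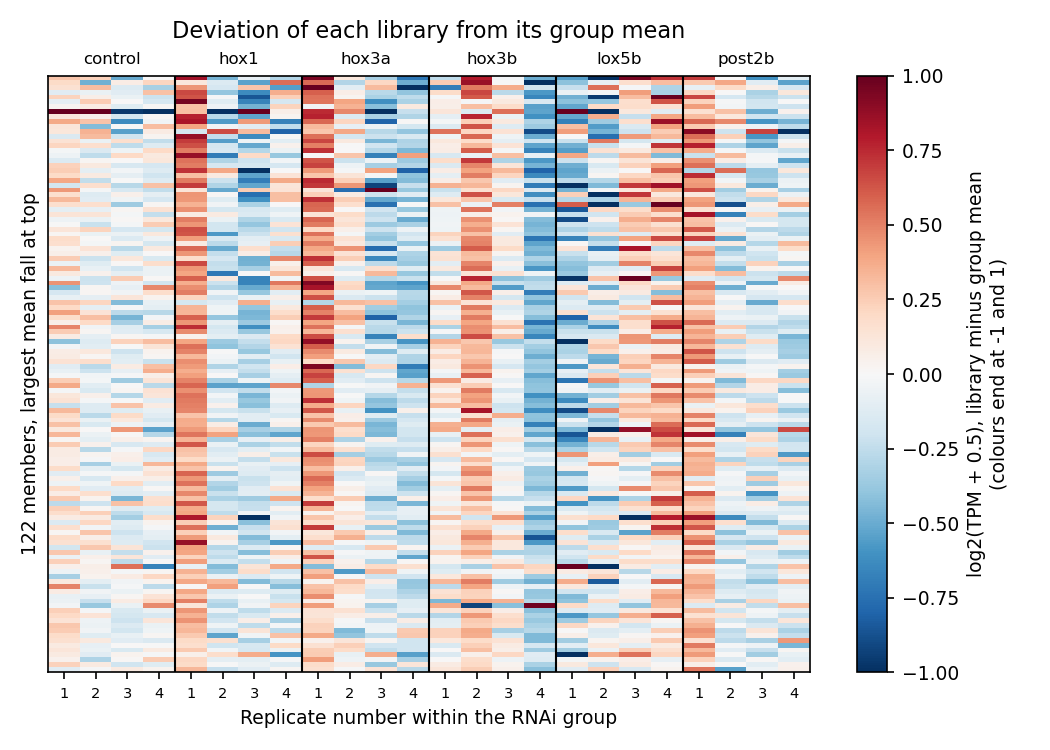
Deviation of each library from its RNAi group mean on the log2(TPM + 0.5) scale for the 122 members (rows, largest mean fall at the top) in 24 libraries (columns, by group and replicate number), red above and blue below the mean. Whole columns have 1 colour, such as *hox1* replicate 1 with 119 members above the mean and *hox3b* replicate 4 with 3.

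What the members encode is mostly not given in the sources used here. The part of the study's annotation used here covers 744 gene IDs and gives a product name to 504 of the genes tested, 3.18%, and to no member. Besides SMESG000002889.1 it lists only SMESG000003625.1, without a product name or a protein match. That gene had 2.30, 2.12, 3.03 and 1.31 TPM in control and 0.276, 0, 1.45 and 1.17 TPM in *lox5b* RNAi, and each of its Hox RNAi groups overlapped control. Among the members, 17 carry an ID within 25 numbers of another member's, in 9 neighbouring pairs such as SMESG000036036.1 with SMESG000036037.1, though the sources do not say how IDs follow position. Of that pair, SMESG000036036.1 had 69.6, 70.1, 75.5 and 82.5 TPM in control and 8.78, 18.8, 18.3 and 22.5 TPM in *lox5b* RNAi. These genes were chosen for mention after their values were seen.

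Genes grouped by product name give the setting in which the members fell. Against control, at 1.5-fold and an adjusted p under 0.05 (limma; in *lox5b* RNAi 2-fold and 0.01), 1.58%, 4.07%, 1.11%, 3.92% and 4.73% of all genes tested were called lower and 0.278%, 0.847%, 0.246%, 0.259% and 0.329% of all genes tested were called higher in *hox1*, *hox3a*, *hox3b*, *lox5b* and *post2b* RNAi in that order. The cilium list holds genes whose product names point to cilia, such as dynein and intraflagellar transport proteins, and planarians glide on motile cilia. None of its 9 tested genes was called against control in any group by limma, with 8 higher in *lox5b* RNAi at an unadjusted p under 0.05, 5 in *hox1*, 3 in *hox3a*, 4 in *hox3b* and 5 in *post2b* RNAi, and 2 lower in *hox3a* RNAi. Its summed level was 588 to 691 TPM in control and lay above that in *hox3b* (709.5 to 794 TPM), *post2b* (715 to 779 TPM) and *lox5b* RNAi (823 to 979 TPM), with overlap in *hox1* and *hox3a* RNAi. Of 7 proliferation genes, which act in DNA replication and chromosome segregation, 1 fell in *hox3a* RNAi, and 4, 4, 2, 5 and 5 were lower at an unadjusted p under 0.05 in *hox1*, *hox3a*, *hox3b*, *lox5b* and *post2b* RNAi. Their sum was 87.0 to 98.9 TPM in control and lay below that in *hox1* (74.6 to 86.5 TPM), *hox3a* (69.4 to 80.2 TPM), *post2b* (73.1 to 84.2 TPM) and *lox5b* RNAi (63.7 to 75.4 TPM), and in *hox3b* RNAi, at 74.4 to 89.0 TPM, it overlapped control. The part of either list in the members' fall was not tested. For these lists and those below, the share of all genes at the unadjusted limit was not counted.

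The other lists had few calls. Of 9 muscle genes 1 fell in each of *hox3a*, *lox5b* and *post2b* RNAi. The muscle sum, however, was 2984 to 3175 TPM in control and higher in *hox1* (3198 to 3449 TPM), *hox3b* (3247 to 3510 TPM) and *lox5b* RNAi (3365 to 3545 TPM). It overlapped control in *hox3a* and *post2b* RNAi. At an unadjusted p under 0.05, 5 muscle genes were higher in *hox3b* RNAi and 0 lower. In *lox5b* RNAi 3 were higher and 2 lower, and in *post2b* RNAi 0 were higher and 4 lower. Of 13 genes of the endoplasmic reticulum and secretion 1 fell in every group and 1 rose in *hox3a* RNAi. The sum of that list, 1502 to 1576 TPM in control, lay below control in all 5 groups, from 1213 to 1330 TPM in *lox5b* to 1324 to 1442 TPM in *hox3b* RNAi. Its median log2 difference did not stand out, at -0.08, -0.17, -0.08, -0.16 and -0.14 in *hox1*, *hox3a*, *hox3b*, *lox5b* and *post2b* RNAi. The medians of all genes tested were -0.06, -0.14, -0.05, -0.15 and -0.15 in that order. The part of the list in the members' fall was not tested. Of 20 mitochondrial genes 1 fell in each of *hox3a* and *lox5b* RNAi and 1 rose in *hox3a* RNAi. Of 14 proteases and their inhibitors 3 fell in *hox1*, 1 in *hox3a*, 4 in *lox5b* and 2 in *post2b* RNAi and 1 rose in *hox3a* RNAi, and of 5 transposon genes 1 fell in *hox1* RNAi. By limma none of 19 neuronal, 18 translation and 5 stress genes was called in any group. At an unadjusted p under 0.05, 8 neuronal genes were lower in *post2b* RNAi, and in *lox5b* RNAi 4 were lower and 3 higher. Of the translation genes 7 were lower and 3 higher in *lox5b* RNAi, where the list's median difference was 0.0049 and its sum of 5629 to 6026 TPM lay above the 5382 to 5596 TPM of control. At the same limit 1 stress gene was lower in each of *lox5b* and *post2b* RNAi, and the stress sum was 4385 to 6074 TPM in *lox5b* RNAi against 7151 to 7738 TPM in control. The median stress gene, however, differed by only -0.049 in *lox5b* RNAi, against -0.154 for the median of all genes tested. All 10 genes of the marginal adhesive gland fell in *post2b* RNAi and by limma none in the other groups, where at most 4, in *lox5b* RNAi, were lower at an unadjusted p under 0.05. The study chose those 10 genes on these libraries, and they are not independent evidence of their direction.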

How the data were processed

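RNA-seq was made from whole planarians in 6 groups of 4 libraries, each a pool of 3 animals. The authors demultiplexed reads with bcl2fastq 2.20 (submitters' processing notes), aligned them with STAR to smed_dd_g4, counted them over the Smes_hv_v1 gene models and deposited TPM, with which tool is not given in the sources used here. TPM keep no depth. The authors tested their counts with edgeR; counts were not used here.

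Groups came from the RNAi label. Replicate numbers were given here, in the order of the running numbers in the library titles within each group. Values were analysed as log2(TPM + 0.5). Genes with at least 0.5 TPM in at least 4 libraries, 15829 with all 122 members, entered 1 model with the RNAi group as the only term (limma 3.58.1, R 4.3.3, eBayes with intensity trend). p-values were two-sided and Benjamini-Hochberg adjusted over all genes tested. On simulated data, 94% of genes lowered 1.75-fold, 98.5% of those lowered 2.5-fold and 100% of those lowered 4-fold in *lox5b* RNAi were called against the other 4 Hox RNAi groups, with 0 false calls among 15629 unchanged genes. The simulated noise was drawn independently for each gene, and changes were planted only in genes with a mean log2(TPM + 0.5) above 1. Members, by contrast, shared library deviations, and 30 lay under 2 TPM. The shares called and the 0 false calls need not hold for them. Members and lists were chosen with earlier results of these data known. Genes were named by this rule: members with a product name, the 6 with the highest mean TPM, the 6 with the largest mean fall, in each contrast the called member with the largest difference in each direction, the 2 with the most even fall, and the 2 nearest the limit of the rule on each side. Product-name lists were cilium, muscle, neuron, proliferation, endoplasmic reticulum and secretion, translation, mitochondrion, proteases and inhibitors, transposon and stress, with the marginal adhesive gland from the study's effector list. Alternatives were pseudocounts of 0.1 and 1, median-of-ratios scaling, other filters and fold limits, group medians, no trend, only Hox RNAi libraries, a replicate block and leaving out each library.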

Additional observations from a re-analysis of the deposited data

Results flagged for a closer look

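In 10 of 126 groups of 4 libraries looked at (the members' median and sum and 19 named members, in 6 groups), 1 library stood apart, that is, its gap to the nearest other library took up most of the range of the group. Chance alone gives about 1 group in 20. In *post2b* RNAi the median log2 level of the members was 2.30 in replicate 1 against 1.94 to 1.96 in the others (gap 0.932 of the range), and their summed TPM was 2409 against 1685 to 1804 (0.837). SMESG000056364.1 was also high in that library, at 174 TPM (0.883). In control replicate 1 the summed TPM of the members was 3734 against 3213 to 3263 (0.904). SMESG000040959.1 was high in control replicate 4, at 9.41 TPM against 6.96 to 7.23 TPM (0.875). In *hox1* RNAi, SMESG000077104.1 was high in replicate 1, at 67.2 TPM against 46.7 to 47.0 TPM (0.980), and SMESG000068215.1 low in replicate 2, at 0.310 TPM (0.832). SMESG000017801.1 was high in *hox3a* replicate 1, at 129.5 TPM (0.830), SMESG000002889.1 low in *hox3b* replicate 4, at 1.27 TPM (0.876), and SMESG000081459.1 low in *lox5b* replicate 1, at 1.39 TPM (0.927).

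Differences between a Hox RNAi group and the mean of the other 4, tested by limma with adjustment over all genes tested, singled out the following named members. Levels in *lox5b* RNAi were lower in SMESG000015174.1 (-0.89), SMESG000072804.1 (-1.05), SMESG000056364.1 (-1.48), SMESG000069984.1 (-0.86), SMESG000072807.1 (-0.90), SMESG000017801.1 (-0.85), SMESG000042720.1 (-0.89), SMESG000057502.1 (-0.70), SMESG000036037.1 (-0.98), SMESG000040959.1 (-1.07), SMESG000018514.1 (-1.16), SMESG000037569.1 (-0.91), SMESG000068215.1 (-0.71), SMESG000016700.1 (-1.58) and SMESG000064113.1 (-0.69), with log2 differences in parentheses and adjusted p from 6.82e-05 to 0.0352. Levels in *post2b* RNAi were lower in SMESG000042720.1 (-1.08) and SMESG000081459.1 (-1.91), with log2 differences in parentheses and adjusted p from 7.73e-09 to 0.0356. Levels in *hox1* RNAi were lower in SMESG000037569.1 (-0.71), with adjusted p = 0.00693. Levels in *hox1* RNAi were higher in SMESG000017801.1 (0.74), SMESG000036037.1 (0.87), SMESG000040959.1 (0.76) and SMESG000081459.1 (0.99), with log2 differences in parentheses and adjusted p from 0.000433 to 0.046. Levels in *hox3a* RNAi were higher in SMESG000068215.1 (0.76), with adjusted p = 0.0386. Levels in *hox3b* RNAi were higher in SMESG000037569.1 (0.59) and SMESG000081459.1 (0.83), with log2 differences in parentheses and adjusted p from 0.00493 to 0.0301. Of these 25 differences, 14 kept their call whichever single library was left out.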

How the results depend on the processing

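Of 378 values recomputed under an alternative, 332 stayed close to the reported value. Some of these could not move, such as the median of a group when a library of another Hox RNAi group was left out. The rule set all the medians below 0, so their direction was not tested. Counts of calls were compared by size only, so a count could stay close while its split into lower and higher changed. Without *post2b* replicate 4, for example, 2 members were called lower and 2 higher in *post2b* RNAi. The number of genes that met the rule was 122 and became 80 with a pseudocount of 1, 60 with TPM rescaled by the median of ratios and 57 with a fall of at least 1.5-fold in every group, all of them among the 122. Leaving out each library in turn gave 78 to 167 genes. The median differences of the members from control moved by less than the SD between libraries under every alternative run. The 80 members that differ among the Hox RNAi groups ranged from 60 to 85 when a library was left out, and the 74 members lower in *lox5b* RNAi from 61 to 80. The latter became 26 at a limit of 2-fold, with 0.910% of all genes tested, where *hox1*, *hox3a* and *hox3b* RNAi each had 0. Members called in *hox3b* RNAi, 5 as reported, were 2 with a pseudocount of 1, 1 after rescaling, 2 without a filter, 3 without the trend and 3 with only the 20 Hox RNAi libraries. Members called in *hox3a* RNAi, 2 as reported, were 1 without a filter, 0 at a mean of at least 2 TPM, 1 with only the 20 Hox RNAi libraries and 6 at any size of difference. Members called in *post2b* RNAi, 3 as reported and all lower, were 7 at any size, 3 lower and 4 higher. At any size 1602 of the 15829 genes tested were called in *post2b* RNAi and 1396 in *hox3a* RNAi. With a library left out, calls ranged from 2 to 15 in *hox1*, 0 to 4 in *hox3a*, 0 to 16 in *hox3b* and 2 to 4 in *post2b* RNAi. Where no value is given for the cause of such a shift, the cause was not tested.

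Replicate numbers, which only follow the order of the library titles, did not pair the libraries throughout. Deviations of same-numbered libraries correlated between -0.28 and 0.30 (Pearson's r across genes), and 6 of 24 libraries were closest to their own number. For number 1, 6 of 15 pairs of libraries had r over 0.1, against 1 of 15 for each other number. The members' median was highest in replicate 1 in control, *hox1*, *hox3a* and *post2b*, second highest in *hox3b* and lowest in *lox5b* RNAi, and no label says what the numbers mark. With the replicate number as a block, 82 members differed among the Hox RNAi groups and 8, 2, 5, 74 and 3 were called in *hox1*, *hox3a*, *hox3b*, *lox5b* and *post2b* RNAi.

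TPM without depth leave the counting error of the 30 members under 2 TPM unknown. With 4 pools a group and deviations shared by most members, counts of members can follow single libraries.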
